A study of Rattus norvegicus with 6 samples.

Results

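Acute phase and mucosal defence genes were followed in rat mammospheres: Lbp, Lcn2, Saa3, Cd14, C3, Hp, Ltf, Pigr, Cp and A2m. The 10 genes were chosen by name, with earlier results of these same arrays known, so their differences between the groups are a description of chosen genes rather than a search. Of the 10 genes, 9 had a probe set that the platform annotation gives to that gene alone, 11 probe sets in all, out of 10424 genes that were tested on the array. Ltf, the iron-binding milk protein lactotransferrin, was not analysed here. Where a gene had several probe sets, the one with the brightest mean over the 6 arrays stands for it, which applied to Cp alone.

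Mammospheres are clusters of mammary cells that grow in suspension from dissociated glands, on plates to which cells cannot attach. The hCG group (3 arrays, hCG 5, 6 and 7) came from female Sprague Dawley rats that received recombinant human chorionic gonadotropin, a hormone of early pregnancy. It was injected into the abdomen each day for 21 days at 100 IU/day, starting at an age of 55 days. The Control group (3 arrays, Control 5, 6 and 7) came from female rats of the same strain and age that received phosphate buffered saline on the same schedule. Glands of both groups were removed once 21 days had passed without treatment. Cells enriched for epithelium then grew for 7 days in medium with EGF, basic FGF and heparin, so every sphere had left the animal and its hormones before RNA was taken. The design speaks of 3 animals per group, and nothing states that an array is 1 animal, so the p-values measure the spread between these arrays, which may be technical.

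Acute phase proteins are plasma and tissue proteins whose output changes in inflammation, chiefly in liver under interleukin 6, interleukin 1 and tumour necrosis factor. In the mammary gland the luminal epithelium makes several of them itself, and secretes them into milk, where they bind bacterial products, withhold iron, mark microbes for uptake or carry antibodies across the cell layer. Many of their genes are known targets of the transcription factors NF-kB, C/EBP and STAT3.

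The 300 bases around the gene start (250 before, 50 after) are shown for Saa3, Lcn2 and C3, the members with the lowest log2 changes among those with an entry in the RefSeq promoter table. They are from the rat build GRCr8, each written 5′ to 3′ along the gene. Positions are counted from the start that the promoter entry uses. For C3 that start is the upper end of the gene range given below, and for Saa3 and Lcn2 it lies inside that range. Capitals mark matches on either strand to an NF-kB motif, GGGANNNNCC, or a C/EBP motif, TTGCNNAA. A STAT motif, TTCNNNGAA, was also searched and has no match in the 7 members' promoters that were found.
Saa3, chr1:106358381-106358680, minus strand: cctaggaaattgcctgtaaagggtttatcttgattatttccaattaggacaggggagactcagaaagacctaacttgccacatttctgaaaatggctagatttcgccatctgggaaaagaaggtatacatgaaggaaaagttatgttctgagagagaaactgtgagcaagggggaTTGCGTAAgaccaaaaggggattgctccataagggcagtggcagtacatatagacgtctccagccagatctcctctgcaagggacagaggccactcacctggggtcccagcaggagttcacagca
Lcn2, chr3:36081731-36082030, minus strand: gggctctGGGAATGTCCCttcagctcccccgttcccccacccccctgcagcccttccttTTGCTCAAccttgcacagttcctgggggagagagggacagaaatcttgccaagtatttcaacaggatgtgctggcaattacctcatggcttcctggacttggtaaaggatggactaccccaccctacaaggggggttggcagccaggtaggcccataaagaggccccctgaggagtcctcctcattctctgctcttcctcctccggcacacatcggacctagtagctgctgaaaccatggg
C3, chr9:2201290-2201589, minus strand: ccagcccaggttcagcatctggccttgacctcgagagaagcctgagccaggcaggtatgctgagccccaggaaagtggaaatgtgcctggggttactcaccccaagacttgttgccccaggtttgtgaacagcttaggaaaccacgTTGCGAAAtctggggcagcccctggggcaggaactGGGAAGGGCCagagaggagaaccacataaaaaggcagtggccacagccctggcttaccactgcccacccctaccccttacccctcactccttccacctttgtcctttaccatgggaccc
In Saa3, whose mouse counterpart encodes a serum amyloid A made largely outside the liver, the C/EBP match TTGCGTAA begins at -75. In Lcn2, the NF-kB match begins at -243, overlaps a second match on the other strand, and is followed by the C/EBP match TTGCTCAA at -191. In C3 the C/EBP match TTGCGAAA begins at -104 and the NF-kB match GGGAAGGGCC at -69. Over all 33469 promoters of this length, 19.3% hold the NF-kB motif, 10.6% the C/EBP motif and 8.87% the STAT motif. Of the 7 members with an entry, 4 hold the NF-kB motif and 4 the C/EBP motif. A match is a run of letters and does not show that a factor binds there.

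Lbp, which encodes the plasma protein that lifts endotoxin out of bacterial membranes, fell in hCG spheres, and it alone among the members passed the test. Its signal was 4.34-fold lower there, a fold read from dim hCG values. Saa3, C3, Lcn2 and Cd14 had negative log2 changes of -2.67, -2.01, -1.36 and -0.66 that did not pass. A2m, a broad protease inhibitor that is a major acute phase protein in the rat, had a change of the opposite sign, 1.99, that also did not pass. Pigr, Hp and Cp had changes of -0.20, 0.17 and 0.14. Genes were tested with limma, with p adjusted over all 10424 genes (Benjamini-Hochberg) and a threshold of 0.05, and 1 of 9 members passed, against 1.82% of all genes.

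**Figure D1:**
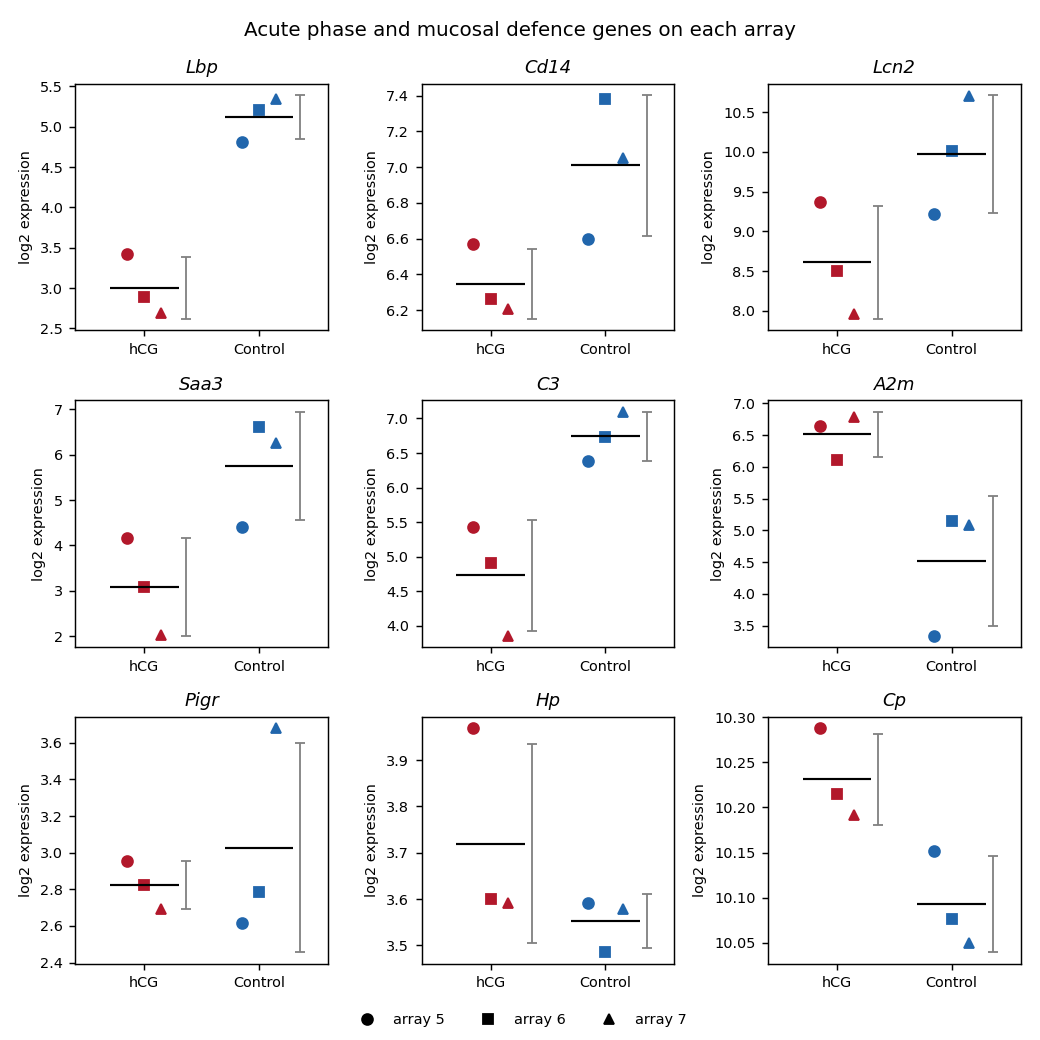
Log2 expression (vertical axes, which differ between panels) of the 9 measured genes on each array, hCG left and Control right, with marker shapes for array numbers 5, 6 and 7, the mean as a black line and the SD as a grey bar (n = 3). The hCG points lie below every Control point for Lbp, Saa3, C3 and, by a small margin, Cd14, and above them for A2m and Cp.

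Endotoxin recognition comes first in order of role. Lbp (probe set 1387868_at; chromosome 3, 167373786 to 167400941 in GRCr8) had log2 values of 3.43, 2.89 and 2.69 on the hCG arrays, against 4.81, 5.20 and 5.34 on the Control arrays. The groups lay 1.39 apart at their nearest arrays, hCG 5 and Control 5. The values on hCG 6 and hCG 7 lay just above the filter level of 2.67, below which probe sets were left out as dim, so the size of the difference rests on dim signal. Its log2 change was -2.12 (SE 0.22, 95% interval -2.64 to -1.60, limma adjusted p = 0.0289). With 1 array left out in turn the change of Lbp stayed between -2.33 and -1.96. Its adjusted p was 0.0588 without hCG 5, 0.174 without hCG 7, 0.0639 without Control 5 and 0.103 without Control 6, settings in which limma called 0 genes in the whole table (1649, 1455, 1950 and 1931 genes at an unadjusted p under 0.05). Lbp also lay outside the test when the dimmest 60% of probe sets were left out.

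Cd14 (1368490_at; chromosome 18, 28609558 to 28611409) encodes the receptor that takes endotoxin from Lbp and hands it to Toll-like receptor 4. Its values were 6.57, 6.26 and 6.21 on hCG arrays and 6.60, 7.38 and 7.05 on Control arrays. The groups met at hCG 5 and Control 5, which differed by 0.02. The log2 change was -0.66 (SE 0.21, limma adjusted p = 0.125).

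Lcn2 and Ltf belong to the iron-withholding proteins. Lcn2 (1387011_at; chromosome 3, 36078432 to 36081851) encodes lipocalin 2, which captures the iron carriers that bacteria release. It had values of 9.37, 8.51 and 7.96 on hCG arrays and 9.21, 10.01 and 10.70 on Control arrays. The groups overlapped, with hCG 5 above Control 5. Its change of -1.36 had a 95% interval of -2.45 to -0.28 (SE 0.46, limma adjusted p = 0.142), and lay between -1.74 without hCG 5 and -1.002 without Control 7.

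Saa3 had the lowest log2 change of the members and the widest spread. Its probe set (1392647_at; chromosome 1, 106354986 to 106358432) read 4.17, 3.08 and 2.02 on hCG arrays, against 4.40, 6.62 and 6.26 on Control arrays. The value on hCG 7 lay below the filter level. Control 5 stood apart from the other Control arrays and came within 0.22 of hCG 5. The change was -2.67 (SE 0.71, 95% interval -4.35 to -0.98, limma adjusted p = 0.0952), and it was -3.35 without Control 5.

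C3 (1368000_at; chromosome 9, 2174412 to 2201339) encodes the central complement component, whose cleavage coats microbes. Values were 5.43, 4.91 and 3.86 on hCG arrays and 6.39, 6.74 and 7.10 on Control arrays. The nearest arrays of the groups were 0.95 apart. The change was -2.01 (SE 0.39, 95% interval -2.94 to -1.08, limma adjusted p = 0.0559), and C3 passed with a variance trend in eBayes (adjusted p = 0.0450).

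A2m (1367794_at; chromosome 4, 156570163 to 156619870) was the one member with a large positive change. It read 6.65, 6.11 and 6.78 on hCG arrays, against 3.34, 5.15 and 5.08 on Control arrays. The groups did not overlap, and Control 5 was far below the other Control arrays. The log2 change was 1.99 (SE 0.48, 95% interval 0.84 to 3.13, limma adjusted p = 0.0813), and 1.40 without Control 5.

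Pigr (1371099_at) encodes the receptor that carries dimeric IgA and pentameric IgM across epithelium into secretions. Its values of 2.96, 2.82 and 2.69 on hCG arrays overlapped those of 2.62, 2.78 and 3.68 on Control arrays, and most lay close to the filter level. The log2 change was -0.20 (SE 0.27, 95% interval -0.84 to 0.43, limma adjusted p = 0.683), and was 0.12 without Control 7.

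Hp (1370148_at) encodes haptoglobin, which binds free haemoglobin. It read 3.97, 3.60 and 3.59 on hCG arrays and 3.59, 3.48 and 3.58 on Control arrays. The groups met at equal values on hCG 7 and Control 5, and the change was 0.17 (SE 0.12, 95% interval -0.12 to 0.45, limma adjusted p = 0.436).

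Cp encodes ceruloplasmin, the copper protein that oxidises iron for export. Its brightest probe set (1368419_at) had 10.29, 10.21 and 10.19 on hCG arrays, against 10.15, 10.08 and 10.05 on Control arrays. The groups did not overlap, but the change was only 0.14 (SE 0.08, 95% interval -0.04 to 0.32, limma adjusted p = 0.320). The other Cp probe sets disagreed in sign. Probe set 1368418_a_at had a change of 0.12 (95% interval -0.07 to 0.31) and 1368420_at one of -0.27 (95% interval -0.60 to 0.05). Their mean gave a change of -0.0050, so no direction can be given for Cp.

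**Figure D2:**
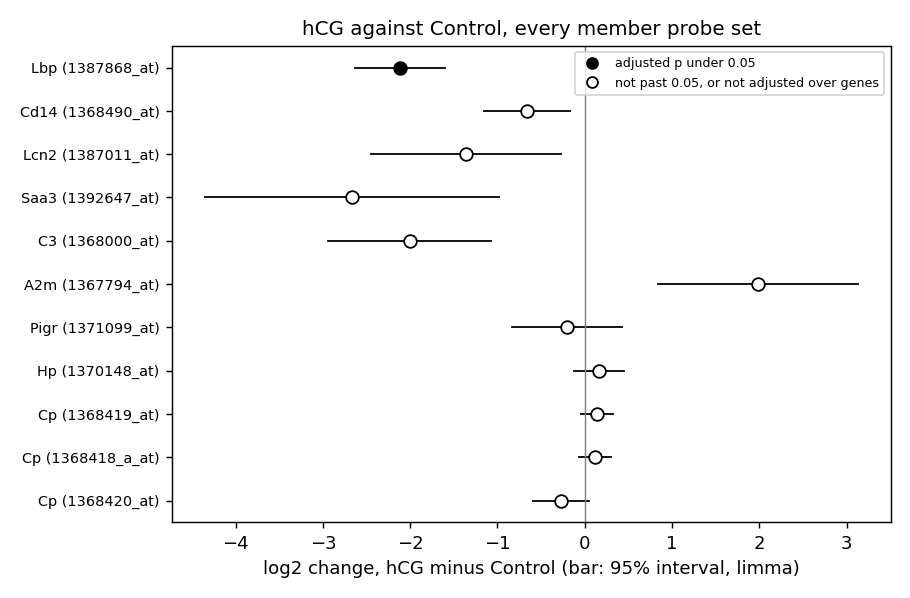
Log2 change, hCG minus Control (horizontal axis), with limma's 95% interval for each of the 11 probe sets, filled where the gene's adjusted p was under 0.05. Lbp alone is filled, the intervals of Saa3, C3, Lcn2, Cd14 and A2m do not include 0, and those of Pigr, Hp and all 3 Cp probe sets do.

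Among the 9 measured members, the hCG arrays were all lower in 4 and all higher in 2. In the whole table the corresponding shares were 12.3% and 19.3% of genes. A change of -1 or lower was found in 4 of 9 members, against 1.42% of genes, and one of 1 or higher in 1 of 9, against 0.902%. The median change of the members was -0.66, and that of all tested genes 0.03. These counts describe genes picked with their behaviour known.

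Within the groups the members also followed a common order of arrays. Of the hCG arrays, hCG 5 was highest and hCG 7 lowest in 8 of 9 members, the exception being A2m. That order held in 12.5% of all genes. Control 5 was the lowest Control array in 7 of 9 members, with Hp and Cp the exceptions, against 33.2% of all genes. This order was noticed in the values and was not tested.

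Pan-luminal markers, fixed as a list, showed the same order in their mean. The mean of 15 of 17 pan-luminal markers that were tested, set against their mean in Control, was -0.37, -0.52 and -0.69 on hCG 5, 6 and 7, against -0.82, 0.16 and 0.66 on Control 5, 6 and 7. The list's range was -0.69 to -0.37 in the hCG group and -0.82 to 0.66 in the Control group. Of the 15, 13 had a change below 0 and 1 passed limma's test, Cd24 (-1.42, adjusted p = 0.0289), which is named after its value was seen. Ehf and Muc1 lay below the filter level. The luminal keratin gene Krt8, 1 of the 2 markers with a change above 0, averaged 6.33 ± 0.15 in hCG spheres and 6.22 ± 0.84 in Control spheres (SD, n = 3 each). The other keratin genes of the list, Krt18, Krt19 and Krt7, had changes of -0.19, -0.60 and -0.96, with overlapping groups. Luminal progenitor markers (8 of 15 tested) had -0.33, -0.59 and -0.97 on the hCG arrays and -0.48, 0.04 and 0.44 on the Control arrays, but the defining genes Elf5 and Kit lay below the filter level in both groups (hCG means 1.96 and 2.04, Control means 2.34 and 2.08). The kappa-casein gene Csn3, of the same list, read 8.20, 5.69 and 4.34 on hCG arrays and 7.79, 9.41 and 9.56 on Control arrays, again with hCG 5 highest and hCG 7 lowest in its group and Control 5 lowest in its own. The groups overlapped, with a change of -2.84 (limma adjusted p = 0.145). Hormone-sensing luminal markers (4 of 12 tested) did not follow that order of arrays. They had -0.10, 0.05 and -0.12 on the hCG arrays and 0.08, 0.06 and -0.14 on the Control arrays. In that list Ptn passed limma's test as higher (2.09) and Fxyd2 as lower (-1.97), both named after their values were seen. In bulk RNA, fewer cells of a type and less RNA per cell cannot be told apart.

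**Figure D3:**
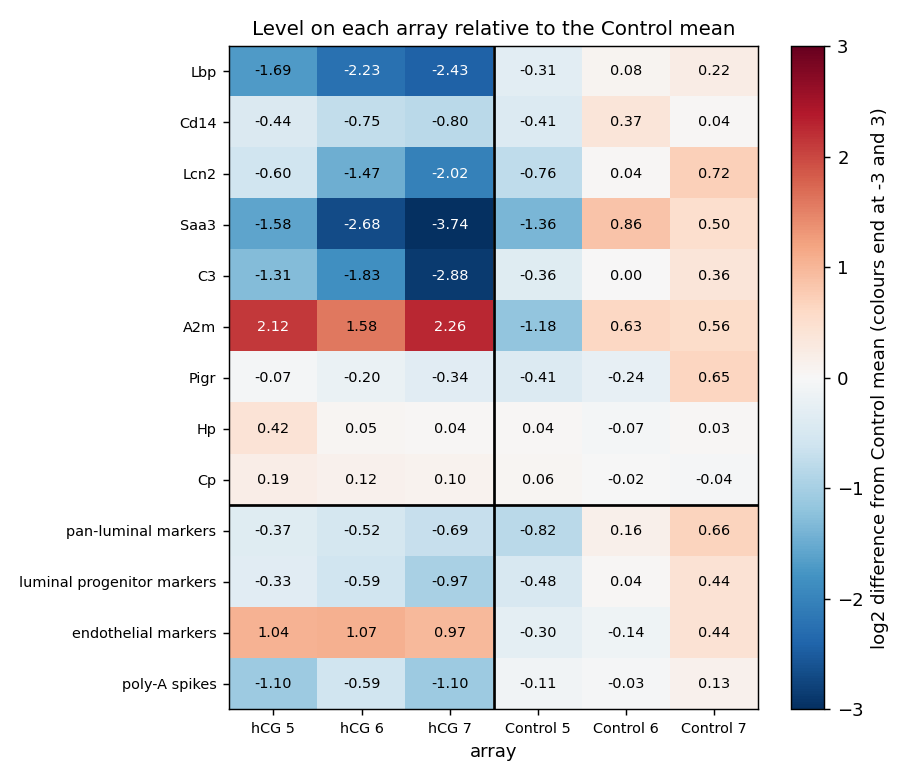
Level of each gene, marker list mean and the poly-A spike mean on each array, as the log2 difference from the Control mean (colour and printed value, hCG arrays left of Control arrays). Lbp, Saa3 and C3 are below -1 on every hCG array, and pan-luminal markers are lowest on Control 5, at -0.82.

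To set each member beside the luminal signal in the same RNA, the mean of the 15 pan-luminal markers was subtracted on each array. Basal and myoepithelial markers have no part in that mean. Relative to luminal markers, Lbp averaged -2.31 ± 0.24 in hCG spheres and -0.72 ± 0.48 in Control spheres (SD, n = 3 each), a difference of -1.59. The differences were -2.14 for Saa3, -1.48 for C3 and -0.84 for Lcn2, and in each the hCG arrays lay below all Control arrays. Lcn2, whose plain values overlapped, parted here with 3.90, 3.19 and 2.81 on hCG arrays, against 4.20, 4.01 and 4.20 on Control arrays. A2m lay higher by 2.51 without overlap. Cd14 overlapped, at 1.03 ± 0.08 in hCG spheres and 1.17 ± 0.55 in Control spheres, a difference of -0.14 that became 0.07 without Control 5. Pigr, Hp and Cp overlapped too, with differences of 0.32, 0.69 and 0.66 (exact two-sided permutation p = 0.4 each). Lbp, Lcn2, Saa3, C3 and A2m each had an exact two-sided permutation p of 0.1, the smallest that 10 splits allow, and 0.18 after Benjamini-Hochberg adjustment over the 9 genes, so this permutation test could not reach 0.05.

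**Figure D4:**
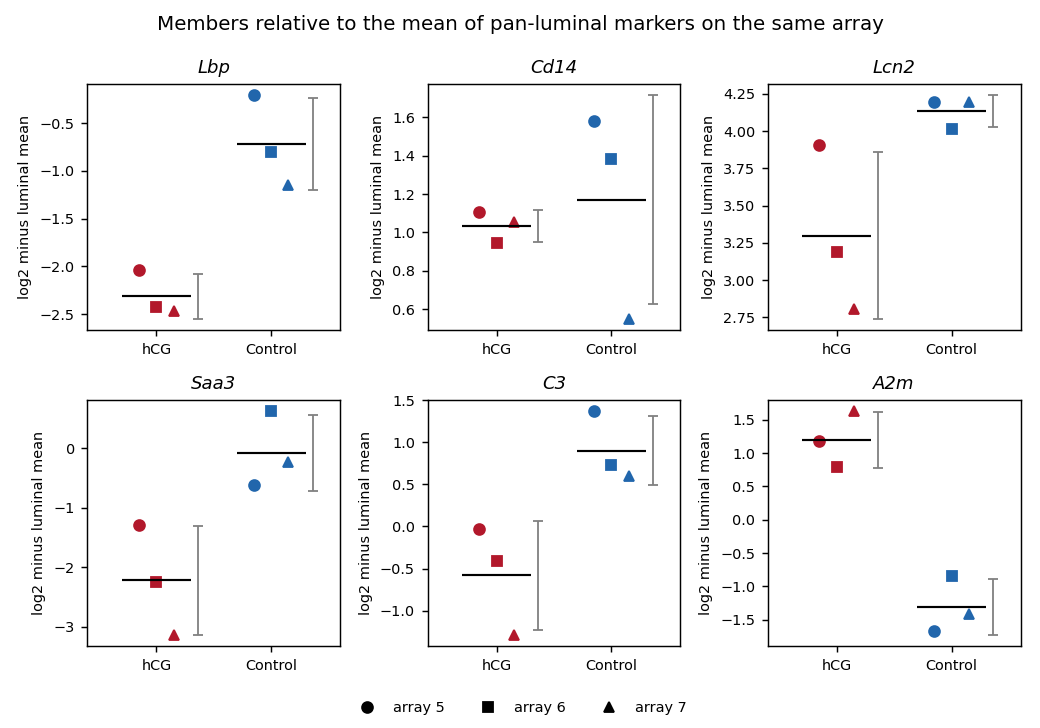
Log2 value of 6 genes minus the mean of 15 pan-luminal markers on the same array (vertical axes, which differ between panels), hCG left and Control right, with the mean as a line and the SD as a bar (n = 3). Lbp, Lcn2, Saa3 and C3 are lower and A2m higher on every hCG array than on any Control array, while Cd14 overlaps. Before the subtraction Lcn2 overlapped and Cd14 did not.

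Markers of other cell types were looked at as well. Endothelial markers (12 of 15 tested) ran from 0.97 to 1.07 on hCG arrays and from -0.30 to 0.44 on Control arrays, the same direction as A2m. Of the 12, 5 passed limma's test as higher and 10 had an unadjusted p under 0.05, against 1.01% and 24.1% of all genes. Macrophage markers (7 of 14 tested) ran from -0.28 to 0.24 on hCG arrays and from -0.22 to 0.42 on Control arrays, overlapping. Its genes were split: Cd68 (-1.33), Ptprc (-1.09) and Aif1 (-0.15) were lower on all hCG arrays, as Cd14 was, Fcer1g (0.78) was higher on all, and Lyz2 (0.90), Adgre1 (0.65) and Tyrobp (0.55) overlapped, with 0 of the 7 passing limma's test (5 at an unadjusted p under 0.05). The remaining 7 markers, Csf1r, Cd163, Mrc1, C1qa, C1qb, C1qc and Itgam, lay below the filter level by their mean over all arrays, with Mrc1 at 3.36 in hCG spheres and 1.89 in Control spheres. Of 10 granulocyte markers 3 were tested, S100a8, S100a9 and Camp, with means from -1.09 to -0.66 on hCG arrays and from -0.67 to 0.70 on Control arrays. S100a8 averaged 4.18 ± 0.31 in hCG spheres and 4.67 ± 0.97 in Control spheres (SD, n = 3 each). S100a9 and Camp had hCG means of 1.94 and 2.62, below the filter level, and were tested through their Control means of 3.60 and 3.01, so the list mean rests on dim signal in the hCG group. Adipocyte markers (4 of 10 tested) ran from 0.43 to 0.69 on hCG arrays and from -0.09 to 0.14 on Control arrays, also the direction of A2m. In that list Fabp4 passed limma's test (1.91, adjusted p = 0.0353), and Cfd (1.01) was also higher on all hCG arrays. Lipe (0.02) overlapped, and Pnpla2 (-0.51) was lower on all hCG arrays. The defining genes Adipoq and Plin1 lay below the filter level in both groups. Lep, Plin4 and Cidec did so too, while Pparg, also untested, averaged 3.24 in hCG spheres and 2.05 in Control spheres. Fibroblast markers (12 of 12 tested) ran from 0.07 to 0.28 on hCG arrays and from -0.04 to 0.02 on Control arrays. This too was the direction of A2m, with Lum passing as higher (1.13) and Dpt as lower (-0.99). Basal and myoepithelial markers (11 of 16 tested) ran from 0.43 to 0.61 on hCG arrays and from -0.54 to 0.44 on Control arrays, with 10 of 11 changes above 0 and 0 passing limma's test (4 at an unadjusted p under 0.05). The marker genes of these lists are named after their values were seen. The part of these cells in the members' values was not tested. Of 12 lymphocyte markers 10 were on the array and 0 lay above the filter level. Bacterial poly-A transcripts, which are added before labelling, were lower on hCG arrays without overlap, at 3.97, 4.49 and 3.97 against 4.97, 5.05 and 5.21 in Control. Their means were 4.14 ± 0.30 and 5.07 ± 0.12 (SD, n = 3 each, 27 probe sets, exact permutation, two-sided p = 0.1). That p is the smallest that 10 splits allow, and the part of these transcripts in the results was not tested.

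The genes around Lbp and Cd14 in endotoxin sensing spanned a narrow range of changes. Of 19 listed genes of the Toll-like receptor route 13 were tested, and 0 passed limma's test (3 at an unadjusted p under 0.05), with changes from -0.37 to 0.14 and a median of -0.01. With array weights 3 were called lower. Over all tested genes 24.1% had an unadjusted p under 0.05, and 25.5% were called with array weights, against which the counts of this and the following lists can be read. Ticam1, an adaptor of Toll-like receptors 3 and 4, had a change of -0.37 (limma adjusted p = 0.0582). Ly96, the co-receptor that holds endotoxin for Toll-like receptor 4, averaged 7.36 ± 0.08 in hCG spheres and 7.68 ± 0.09 in Control spheres (SD, n = 3 each). Tollip, a brake on the route, had a change of -0.21. The receptor gene Tlr4, named after its value was seen, had 4.52, 4.41 and 4.29 on hCG arrays and 4.50, 4.88 and 4.42 on Control arrays, which overlapped.

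Of the inputs that raise acute phase genes, 3 passed the test, not all in one direction. Among 21 tested genes of NF-kB, interleukin 1 and tumour necrosis factor, 1 rose and 2 fell, and the median change was -0.14. Over all tested genes 1.82% passed. Of the 21, 9 had an unadjusted p under 0.05, and array weights called 10. Tnf, the cytokine tumour necrosis factor, rose by a log2 change of 0.92 (SE 0.15, limma adjusted p = 0.0439), with 6.07, 5.62 and 6.05 on hCG arrays and 5.07, 4.80 and 5.11 on Control arrays. A second Tnf probe set (1387691_at), near the filter level, had a change of 0.16 with overlapping groups, and the mean of both gave 0.54 (adjusted p = 0.0410). Il1a, interleukin 1 alpha, fell by 1.06 on the log2 scale (SE 0.17, limma adjusted p = 0.0382). It read 2.42, 2.79 and 2.70 on hCG arrays, and 3.38, 3.81 and 3.92 on Control arrays. Its hCG mean of 2.64 lay below the filter level, so it was tested through its Control values, and the size of its change rests on dim signal. The log2 change of Tnfrsf1b, a receptor for tumour necrosis factor, was -0.65 with an SE of 0.10 (limma adjusted p = 0.0382). Il1a and Tnfrsf1b were outside the test when the dimmest 60% of probe sets were left out.

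The interleukin 6 route had 18 tested genes, of which 0 passed limma's test (6 at an unadjusted p under 0.05), with a median change of -0.11. With array weights 3 were called higher and 3 lower. Jak2, a kinase of cytokine receptors, had a change of 0.57 (limma adjusted p = 0.0875), and Il6st, the shared receptor chain gp130, one of 0.25. Lif, a cytokine of this family, had a change of -1.29 with overlapping groups and an hCG mean of 2.61, below the filter level. Il6, named after its value was seen, read 7.57, 9.49 and 8.87 on hCG arrays and 10.65, 10.12 and 9.31 on Control arrays, which overlapped, and its change was -1.38 (limma adjusted p = 0.176), or -0.85 without hCG 5 and -1.81 without hCG 6.

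Other secreted defence proteins included 1 more fall. Of 18 tested mucosal and milk defence genes, 0 rose and Slpi alone fell, against 0.815% of all genes passing as lower. Of the 18, 15 lay below 0, with a median change of -0.39, against 0.03 over all tested genes. At an unadjusted p under 0.05 there were 8, and array weights called 9. The hCG arrays were all lower in 8, against 12.3% of all genes. Slpi, an inhibitor of neutrophil proteases secreted onto mucosal surfaces, read 8.67, 9.49 and 8.94 on hCG arrays and 10.95, 10.53 and 10.27 on Control arrays. The groups did not overlap, and its change was -1.54 (SE 0.25, limma adjusted p = 0.0389). Muc4, a membrane mucin, and Camp, the cathelicidin precursor, had changes of -1.59 and -0.38 without overlap (limma adjusted p = 0.0733 and 0.0610), but all hCG values of Camp lay below the filter level. Ccl20, a chemokine of mucosal epithelium named after its value was seen, had the lowest change of the list, -2.35 (limma adjusted p = 0.0932). The calls of Tnf, Il1a, Tnfrsf1b and Slpi each held without Control 7 and without hCG 6 and were lost in the other 4 settings that left out 1 array. With the array number as a block, Tnfrsf1b (adjusted p = 0.0824) and Slpi (0.0655) lost their calls, and Tnf and Il1a (both 0.0450) kept them.

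Complement genes other than C3 were split in direction. Of 16 tested, 0 passed limma's test (4 at an unadjusted p under 0.05; 5 with array weights), 8 lay above 0 and 8 below, and the median was -0.01. Masp1, a protease of the lectin pathway, read 3.47, 4.68 and 4.66 on hCG arrays and 6.71, 5.89 and 5.40 on Control arrays, with a change of -1.73 (limma adjusted p = 0.0839). Cfd, the factor D protease of the alternative pathway and also a fat cell product, had a change of 1.01 (limma adjusted p = 0.0839), and Masp2 one of 0.40.

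Most liver acute phase proteins were dim in these spheres. Of 30 listed, 25 were on the array and 4 were tested, Serpina3n (-0.72), Hamp (0.10), Itih1 (-0.06) and Ttr, with 0 passing limma's test (0 at an unadjusted p under 0.05; 1 with array weights). Fga, Hpx, Crp and Alb lay below the filter level in both groups. Of 20 tested genes of iron and copper handling 0 passed limma's test (7 at an unadjusted p under 0.05; 6 with array weights), with a median change of -0.03. Heph passed without the filter, with median centring and with a variance trend, and when probe sets of a gene were averaged, both Heph and Slc11a2 (-0.52, adjusted p = 0.0387) passed. Heph, a ceruloplasmin relative in the membrane, read 3.72, 3.42 and 3.53 on hCG arrays and 2.36, 2.96 and 2.71 on Control arrays (limma adjusted p = 0.0533). Slc11a2 and Steap3, an iron importer and an iron reductase, had changes of -0.38 and -0.48. In the whole data set 0.815% of genes passed as lower and 1.01% as higher.

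**Figure D5:**
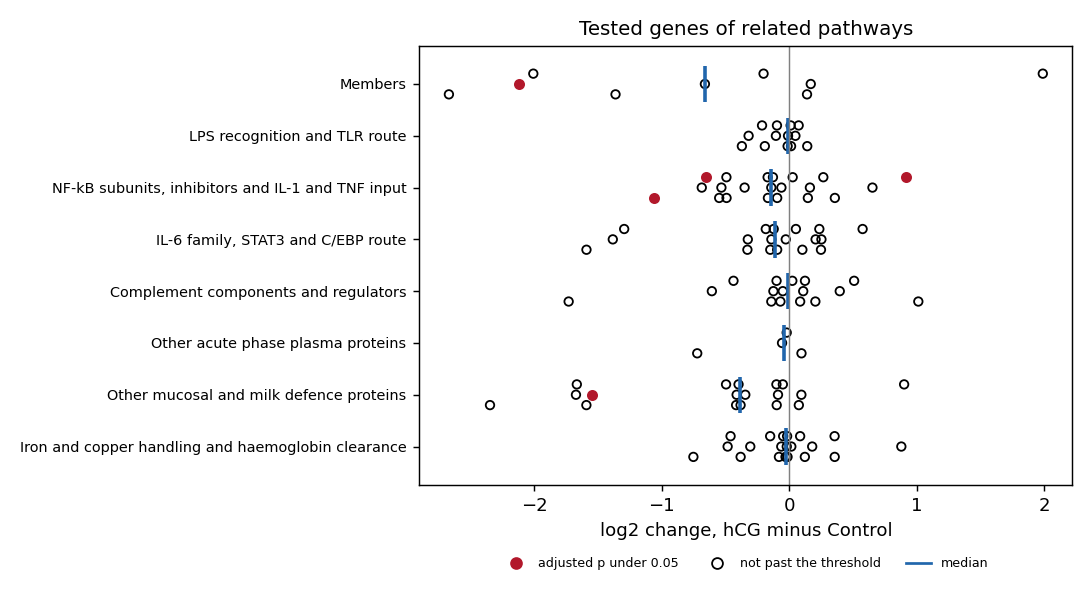
Log2 change, hCG minus Control (horizontal axis), of every tested gene in the 9 measured members and 7 related lists (rows), with genes past an adjusted p of 0.05 filled and the median as a blue line. The filled points are Lbp among the members, Il1a, Tnfrsf1b and Tnf in the NF-kB row and Slpi in the mucosal row.

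The genes most like the members' mean profile over the 6 arrays were Nedd9 (Pearson r = 0.992), Sema3e (0.990), Chi3l1 (0.985), Gabrp (0.983) and Trub2 (0.982). These r values describe 6 arrays that differ by group, carry no test and do not reflect the size of a change. The log2 changes were -0.22 for Nedd9, -0.87 for Sema3e, -1.67 for Chi3l1, -2.64 for Gabrp and -0.07 for Trub2. None of them passed limma's test. Gabrp, a GABA receptor subunit, read 4.30, 3.02 and 2.23 on hCG arrays and 4.65, 6.10 and 6.73 on Control arrays, which did not overlap. Chi3l1, a secreted chitinase-like glycoprotein, read 3.93, 2.80 and 2.52 on hCG arrays and 3.98, 5.05 and 5.24 on Control arrays. In both, as in Lbp, Saa3 and C3, hCG 5 and Control 5 were the nearest arrays of the groups.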

How the data were processed

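RNA of mammospheres was labelled with 2 rounds of amplification and measured on Affymetrix 3′ arrays, per the labels' protocols. The authors' deposited table holds log2 values for 31099 probe sets, between 0.74 and 13.1. RMA, MAS5 and limma stand in the submitters' processing notes, without versions or roles; the log base and the normalization between arrays were taken from the values. Array medians lay between 3.44 and 3.48, 0 values were missing, and the number of arrays limits the precision. Probe sets naming 1 gene (20826) were used, with symbols updated by gene number through the RefSeq table of GRCr8. The 57 control probe sets and the dimmest 40% of the others, below a log2 mean of 2.67, were left out, which left 18625 probe sets and 10424 genes.

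Groups were compared in R 4.3.3 with limma 3.58.1 (lmFit, then eBayes), without covariates, two-sided, with Benjamini-Hochberg adjustment over the brightest probe set of each gene. Alternatives were the filter, normalization, probe set summary, array number as a block, eBayes settings, array weights and each array left out; pseudocounts for linear values did not apply. The members and lists were chosen with earlier results of these data known. Named are all members, and in each list the called genes and the 3 of smallest p, with a few markers and the 5 most alike patterns. The planned gene Mpo was not analysed here.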

Additional observations from a re-analysis of the deposited data

How the results depend on the processing

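The sign of the log2 change of Lbp, Saa3, C3, Lcn2, Cd14 and A2m was kept under every alternative that was run and tested them. Against 190 called genes and 1 called member (Lbp), the variance trend called 306 genes and 2 members (Lbp, C3), array weights 2663 genes and 6 members (those 6), and an adjusted p under 0.10, added after seeing the data, 844 genes and 4 members (Lbp, C3, A2m, Saa3). The weights gave hCG 7 7.25 and Control 7 0.23. Leaving out the dimmest 60% of probe sets called 0 members, since Lbp itself was left out, with 5 members at an unadjusted p under 0.05. With 1 array left out in turn, called genes ranged from 0 (without hCG 5, hCG 7, Control 5 or Control 6) to 584 (without Control 7), with 338 without hCG 6, and called members from 0 to 1. The array number as a replicate block called 118 genes, 85 of them among the 190, and Lbp kept its call, while Tnfrsf1b and Slpi lost theirs; same-numbered arrays did not deviate together (r = -0.09, 0.13 and 0.00 for numbers 5, 6 and 7), so the numbers were not taken to pair the samples. Signs turned for genes near 0: Cp with the mean of its probe sets (-0.0050, adjusted p = 0.977), and Itih1 (0.022) and Krt18 (0.0056) with array weights. With 1 array left out, changes lay between -0.34 (without Control 5) and 0.49 (without Control 7) for Krt8, -0.63 and 0.29 for Krt18, -0.41 and 0.12 for Pigr, and -0.94 and 0.018 for S100a8, the ends being from the same 2 arrays. Relative to luminal markers, the difference of Pigr turned from 0.32 to -0.16 with Krt8 and Krt18 as the markers. That of Cd14 lay between -0.45 without Control 7 and 0.068 without Control 5. With 1 array left out, the differences relative to luminal markers lay between -1.81 and -1.34 for Lbp, -2.61 and -1.69 for Saa3, -1.75 and -1.12 for C3, -1.14 and -0.59 for Lcn2, and 2.30 and 2.74 for A2m. Dim signal limits Saa3, Pigr, Il1a, Camp, Lif, Heph, Itih1, Gabrp and Chi3l1, which have at least 1 array below the filter level, and Lbp, whose lowest value of 2.69 lies just above it.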
